A study of Mus musculus with 20 samples.

Results

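Mesenteric white fat of mice on a high fat diet with porphyran (HFD+PP) was compared with mesenteric fat of mice on the control diet (CD). The comparison rests on 2 of the 20 one-colour arrays of the series, which covers 5 tissues on 4 diets, and the arrays were chosen by tissue and diet label alone. Porphyran is a sulphated polysaccharide of the red alga from which nori is made. The mice of all groups were C57BL/6J males, put on their diets when 5 weeks old and fed for 13 weeks. The HFD+PP mice received 60% of energy as fat with 2% porphyran by weight, and the CD mice received 10% of energy as fat. Mesenteric fat was also measured on the high fat diet with 2% nori extract (HFD+Ex) and on the high fat diet alone (HFD). Each array held 1 pool of RNA from the tissue of 7 mice, so the spread between mice was lost and each group was a single sample. No test was therefore possible, no p-value or standard error is given, and every difference below describes these 2 pools. The HFD+PP and CD arrays also lay on different slides, so slide and diet cannot be told apart in this comparison. The HFD array shared the slide of the CD array, and the HFD+Ex array that of the HFD+PP array.

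Mesenteric fat hangs along the gut between the layers of the mesentery, next to pancreas, lymph nodes and bowel, and drains into the portal vein. Its fat cells make new fatty acids from glucose when dietary carbohydrate is plentiful, through a pathway driven by insulin, SREBP1 and ChREBP that is turned down on fat-rich diets. When fat cells enlarge they release more leptin and express genes such as Mest, Sfrp5 and the caveolins, while macrophages that take up lipid gather around them. The comparison asks what still separates mesenteric fat on the porphyran-supplemented high fat diet from the control state.

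Levels are log2 signals relative to the 75th percentile of the array, a scale on which levels of different genes cannot be set against each other. A gene counted as measured when the scanner software called its probe well above background on either array, and as higher or lower when the arrays differed by at least 2-fold, that is by 1 log2 or more. Where the dimmer array was not well above background, the fold is a bound and is written "at least". Spots printed several times on an array gave a spread of 0.0904 log2 (1 technical standard deviation of a difference), which leaves out all variation between mice and pools. The tissue label was checked against 27 white adipocyte genes, all of them measured. Their median level was 5.20 in HFD+PP and 5.32 in CD fat, against 1.08 on the HFD+PP ileum array and 1.49 on the CD ileum array. Brown fat stood higher on the same list, at 6.62 on HFD+PP and 6.64 on CD, so the check does not separate white from brown fat. In mesenteric fat the median difference of the 27 genes was 0.28 log2, of the opposite sign to the difference between the mesenteric median levels. Of the 27 genes 3 were called higher and none lower, against 3.31% and 2.82% of all measured genes. Adiponectin (Adipoq), the most fat-specific of them, stood at 8.11 in HFD+PP and 7.47 in CD fat.

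Of 16537 measured genes, 547 were higher in HFD+PP than in CD fat (3.31%) and 466 were lower (2.82%), so 93.9% lay within 2-fold. Among the called genes 108 of the higher and 131 of the lower ones were bounds. A 4-fold difference was passed by 109 genes in each direction, and an 8-fold difference by 33 in each. The median of all genes was 0.014 log2, and the middle 50% of them lay between −0.19 and 0.26. Dim genes were called more often. Where the brighter array was under −3 log2, 10.2% of 2905 genes were called, against 4.24% of 2927 genes at 3 log2 or above. Without genes of pancreas, gut and lymphoid tissue, 322 genes were higher and 335 lower, so that the share of higher genes among those called was 49.0%, against 54.0% with them. With a different background correction, normexp with an offset of 50, the counts were 267 higher and 152 lower, and the share was 63.7%. With no filter on dim probes it was 61.6%.

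The typical size of a difference, as the scaled median absolute deviation over genes, was 0.334 log2 for HFD+PP against CD, 0.368 for HFD+Ex against CD and 0.571 for HFD against CD. All of these share the CD array and are set side by side without a comparison. On the same scale the value was 0.349 in brown fat, 0.249 in colon, 0.198 in liver and 0.155 in ileum for HFD+PP against CD.

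**Figure D1:**
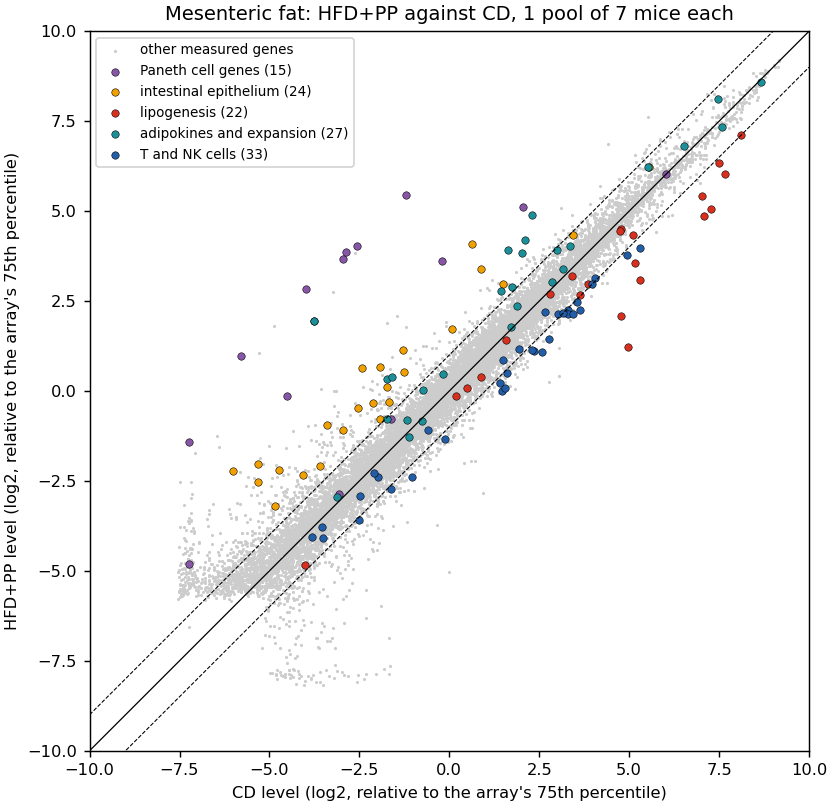
Level of each measured gene in HFD+PP fat (vertical axis) and CD fat (horizontal axis), in log2 relative to the array's 75th percentile, with members of 5 gene lists in colour. The solid line marks equal levels and the dashed lines a 2-fold difference, and genes that are bounds are drawn at their measured levels. Lipogenesis genes lie below the equal line, Paneth cell and intestinal genes above it, and the adipokine and expansion genes mostly above it.

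The clearest group difference in fat cell metabolism was in fatty acid synthesis. Of 22 measured lipogenesis genes, 9 were lower in HFD+PP fat and none higher, with a median of −0.92 log2. All 22 were below 0, while the background was 2.82% lower genes and a median of 0.014. Among the genes that fell, Acly, Acaca, Fasn and Elovl6 lie on the route from citrate to long-chain fatty acids, and Acss2, Slc25a1, Tkt, Me1 and Thrsp supply or promote it. In bulk tissue less RNA per fat cell and fewer fat cells cannot be told apart. In the same RNA Adipoq was 1.56-fold higher, and of the 27 white adipocyte genes 20 differed by more than 0 and 7 by less.

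The promoters of 3 of the genes that fell and of the leptin gene are shown because lipogenesis genes moved together and Lep moved the other way. They run from 250 bases before to 50 after the start of the gene, are given on the gene's strand and come from RefSeq for assembly GRCm38.p6. Capitals mark the GC box (GGGCGG) and the CCAAT box (CCAAT), each searched on both strands. Elovl6 lies at chr3:129532136-129532435 on the plus strand, Fasn at chr11:120824498-120824797 on the minus strand, Acly at chr11:100527951-100528250 on the minus strand and Lep at chr6:29059971-29060270 on the plus strand.
Elovl6: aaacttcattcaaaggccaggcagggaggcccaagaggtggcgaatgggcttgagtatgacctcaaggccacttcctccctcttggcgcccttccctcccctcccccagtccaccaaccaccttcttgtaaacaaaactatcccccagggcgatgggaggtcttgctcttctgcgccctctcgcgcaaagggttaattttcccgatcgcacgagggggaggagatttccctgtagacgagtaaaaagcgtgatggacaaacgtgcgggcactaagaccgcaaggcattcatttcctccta
Fasn: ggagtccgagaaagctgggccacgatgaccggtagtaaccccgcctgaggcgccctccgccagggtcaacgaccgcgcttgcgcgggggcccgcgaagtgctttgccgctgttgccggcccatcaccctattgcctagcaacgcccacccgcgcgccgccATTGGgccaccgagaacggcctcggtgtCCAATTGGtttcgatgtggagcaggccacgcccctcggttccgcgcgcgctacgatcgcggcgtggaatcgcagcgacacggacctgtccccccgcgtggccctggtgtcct
Acly: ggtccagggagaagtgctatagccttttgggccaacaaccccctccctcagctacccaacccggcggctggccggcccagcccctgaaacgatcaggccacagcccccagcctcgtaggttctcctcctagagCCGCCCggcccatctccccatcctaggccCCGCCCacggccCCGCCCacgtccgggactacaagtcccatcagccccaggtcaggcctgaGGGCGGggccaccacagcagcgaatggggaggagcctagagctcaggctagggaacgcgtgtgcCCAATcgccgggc
Lep: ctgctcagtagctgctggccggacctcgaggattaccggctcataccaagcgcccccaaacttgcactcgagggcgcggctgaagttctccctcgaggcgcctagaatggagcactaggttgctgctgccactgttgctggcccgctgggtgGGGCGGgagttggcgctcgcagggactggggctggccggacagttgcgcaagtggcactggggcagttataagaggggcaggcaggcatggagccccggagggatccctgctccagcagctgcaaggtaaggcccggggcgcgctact
The Elovl6 window held none of the searched motifs. Of the 9 genes that fell, 5 held CCAAT in this window, as did 6 of the 10 other lipogenesis genes with a listed promoter and 38.2% of 13080 measured genes. GGGCGG was found in 5 of the 9, in 5 of the 10 and in 57.0% of the measured genes. The E-box CACGTG was found in 1 of the 9 (Slc25a1), in 2 of the 10 and in 9.27% of all. The sterol regulatory element TCACCCCAC was found in none of the 19 and in 0.512% of all.

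Acly, which splits citrate in the cytosol into acetyl-CoA, stood at 4.87 in HFD+PP and 7.09 in CD fat, a 4.66-fold difference. Acss2, which makes acetyl-CoA from acetate, was at 3.10 in HFD+PP and 5.31 in CD fat and was 4.63-fold lower. Acaca, the carboxylase that commits acetyl-CoA to fatty acid synthesis, was at 5.05 in HFD+PP and 7.28 in CD fat, 4.68-fold lower. These 3 genes of acetyl-CoA supply and activation thus differed by nearly equal folds on the probe chosen for each. As the median over probes they were less alike, at −2.81 log2 for Acaca, −2.40 for Acly and −2.22 for Acss2. Fasn, the fatty acid synthase, was at 2.09 in HFD+PP and 4.79 in CD fat and was 6.46-fold lower. Elovl6, which elongates palmitate to stearate, showed the largest fall of the group, at 1.22 in HFD+PP and 4.97 in CD fat, 13.5-fold lower. Both genes stood on HFD+PP close to their levels on the other high fat arrays. Elovl6 was at 1.19 on HFD+Ex and 1.46 on HFD, and Fasn at 2.25 on HFD+Ex and 1.69 on HFD.

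Some suppliers of reducing power and carbon fell too, by smaller folds, while the pentose phosphate genes G6pdx (−0.27 log2) and Pgd (−0.30 log2) stayed within 2-fold. Tkt, the transketolase of the pentose phosphate pathway, was 3.12-fold lower, the citrate carrier Slc25a1 was 3.04-fold lower, and malic enzyme Me1 was 2.99-fold lower. Thrsp, a lipogenic protein also known as Spot 14, was 2.25-fold lower. Slc2a5, the fructose transporter, was among the 15 genes with the lowest differences, at −1.96 in HFD+PP and 0.61 in CD fat, 5.92-fold lower. The desaturase Scd1 stayed just inside the threshold at −0.98 log2. The transcription factors of the pathway differed less, with −0.42 for Srebf1 and −0.19 for Mlxipl, which encodes ChREBP, and Pnpla3 differed by −0.16. Against the same CD array, 11 of 22 lipogenesis genes were lower on HFD (background 8.46%) and 10 of 22 on HFD+Ex (background 4.10%), with medians of −1.04 and −0.86.

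**Figure D2:**
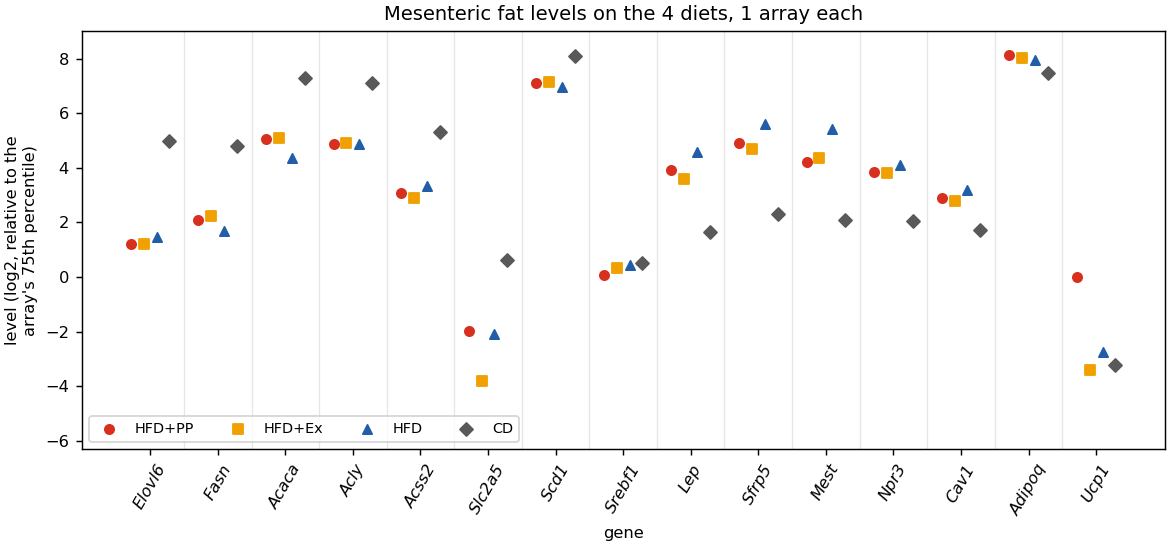
Levels of 15 genes in mesenteric fat, in log2 relative to the array's 75th percentile, on HFD+PP, HFD+Ex, HFD and CD, 1 array each with no error. From Elovl6 to Slc2a5 the CD array stands above the 3 high fat arrays, and from Lep to Cav1 it stands below them. Ucp1 is high only on the HFD+PP array.

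In the rest of fat cell metabolism few genes passed 2-fold, while over all genes 3.31% were higher and 2.82% lower. None of 16 triglyceride synthesis genes, 30 fatty acid oxidation genes and 39 respiratory chain genes passed 2-fold, with medians of 0.03, 0.24 and 0.04 log2. Above and below 0 were 10 and 6 of the triglyceride synthesis, 25 and 4 of the oxidation, and 25 and 14 of the respiratory chain genes. Glucose and glycerol supply (26 genes) had no called gene and a median of −0.24, and Slc2a4, the insulin-responsive glucose transporter, differed by −0.31. Cholesterol synthesis (25 genes) had no called gene and a median of −0.33, with Sqle at −0.56. Of these genes 22 were below 0 and 3 above, where the median of all genes was 0.014. In brown fat 11 of the 25 were lower (3.05% over all genes), with a median of −0.68. Among 26 lipolysis and lipoprotein lipase genes Angptl4, an inhibitor of lipoprotein lipase, was called alone at 2.06-fold higher. That is 3.85% of the list, near the share of all genes. The lipases Pnpla2 and Lipe differed by 0.25 and 0.49, and Lpl by 0.34. Of 15 lipid droplet proteins, Plin4 was 2.15-fold higher and Cidea 2.45-fold lower, each 6.67% of the list. Of 26 insulin signalling genes, Grb14, an adaptor that binds and inhibits the insulin receptor, was 3.24-fold higher. It was the only called gene of that list (3.85%), again near the share of all genes. The receptor itself (Insr) differed by 0.07 and its substrates Irs1 and Irs2 by 0.15 and 0.24.

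Of 27 adipokine and fat expansion genes, 9 were higher in HFD+PP fat, against 3.31% of all genes, and none was lower, with a median of 0.66 log2. Leptin (Lep), the hormone that reports fat stores to the brain, stood at 3.93 in HFD+PP and 1.63 in CD fat, 4.91-fold higher. Sfrp5, a secreted Wnt inhibitor, was at 4.90 in HFD+PP and 2.31 in CD fat, 6.02-fold higher. Mest, an imprinted gene that follows fat expansion, was at 4.21 in HFD+PP and 2.09 in CD fat, 4.34-fold higher. The CD array was thus the low one for all 3, and on HFD they stood higher still, at 4.58 for Lep, 5.62 for Sfrp5 and 5.41 for Mest. Bmp3, a member of the bone morphogenetic protein family, was 4.19-fold higher, and Peg3, another imprinted gene, 3.89-fold. Npr3, the natriuretic peptide clearance receptor, was 3.49-fold higher. Cav1, the main caveolin of fat cells, was 2.22-fold higher. Sncg and Nnat, which are both abundant in white fat cells, were 5.56-fold and 3.94-fold higher.

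Another called gene of the expansion list was Itln1, at 1.94 in HFD+PP and −3.76 in CD fat, 51.9-fold higher. It is made by mesothelial cells of fat and, in mice, by intestinal Paneth and goblet cells, and Paneth cell genes moved in the same direction as given below. Adipoq at 0.64 and resistin (Retn) at −0.23 did not reach 2-fold. Against the same CD array, 14 of 27 genes of the list were higher on HFD (background 8.86%) and 9 on HFD+Ex (background 2.50%).

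Ucp1, the uncoupling protein of brown and beige fat cells, stood at 0.01 in HFD+PP and −3.21 in CD fat, a 9.35-fold difference. It was at −3.40 on HFD+Ex and −2.74 on HFD, so HFD+PP was the single high array of this tissue. In brown fat Ucp1 stood at 9.80 on HFD+PP and 9.97 on CD. Other thermogenic genes did not move as one group: of 24 measured, 4 were higher and 2 lower, against 3.31% and 2.82% of all genes, with a median of 0.20. Slc27a2, a fatty acid transporter and acyl-CoA synthetase that is also abundant in liver, was 4.97-fold higher. Fgf21, a fasting and cold hormone, was 2.41-fold higher and Dio2, which activates thyroid hormone, 2.11-fold. Unlike Ucp1, Slc27a2 and Fgf21 were also high on HFD. Slc27a2 stood at −2.64 on HFD+PP, −5.21 on HFD+Ex, −2.78 on HFD and −4.96 on CD. Fgf21 stood at −2.67 on HFD+PP, −4.01 on HFD+Ex, −2.69 on HFD and −3.94 on CD. Tmem26, a beige fat marker, was 2.48-fold lower, as Cidea was by 2.45-fold, and Ppargc1a differed by −0.08. With normexp Fgf21 (0.67), Dio2 (0.35) and Tmem26 (−0.36) were within 2-fold, and Slc27a2 was at 1.03 log2.

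**Figure D3:**
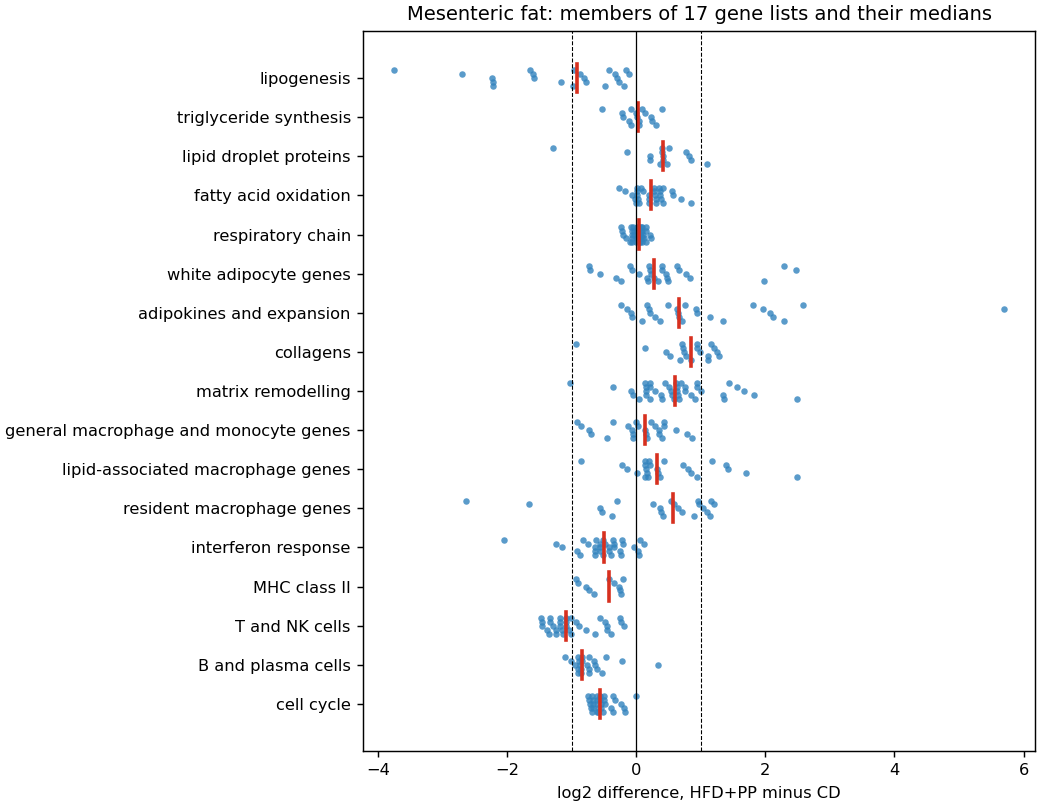
Log2 differences, HFD+PP minus CD, of the measured members of 17 gene lists (points) with the median of each list (red bar). Dashed lines mark 2-fold, and the vertical position within a list carries no value. Lipogenesis, T and NK cell and B and plasma cell members lie mostly below 0, and collagen and expansion genes mostly above it.

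Macrophage genes differed in part. Of 25 genes of lipid-associated macrophages, the cells that surround and clear enlarged fat cells, 5 were higher (3.31% over all genes) and none lower, with a median of 0.33. Mmp12, a macrophage elastase, was at −1.36 in HFD+PP and −3.85 in CD fat, 5.62-fold higher. Trem2, the lipid-sensing receptor that defines these cells, was at 2.31 in HFD+PP and 0.89 in CD fat, 2.68-fold higher. Gpnmb, a lysosomal membrane glycoprotein, was at 1.94 in HFD+PP and 0.55 in CD fat, 2.64-fold higher. Dcstamp, needed for macrophage fusion, was 3.24-fold higher, and the protease Ctsk 2.25-fold. On HFD alone, 19 of the 25 were higher than on CD (8.86% over all genes), with a median of 1.58, and Trem2 and Gpnmb exceeded CD by 4.46 and 4.65 log2. With normexp Mmp12 differed by 1.42 and Dcstamp by 1.09 log2. Spp1 missed the threshold at 0.95, and Itgax, a marker of inflammatory fat macrophages, was at 2.20 in HFD+PP and 2.19 in CD fat.

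None of 25 general macrophage genes passed 2-fold (3.31% higher and 2.82% lower over all genes), with a median of 0.14. The pan-macrophage genes Adgre1 and Cd68 differed by 0.79 and 0.44. Resident macrophage genes split. Cd209g, Cd209f, Retnla, F13a1 and Vsig4 were between 2.06-fold and 2.30-fold higher, whereas Cd5l and Timd4 were lower. Cd5l, an apoptosis inhibitor of tissue macrophages, stood at 0.42 in HFD+PP and 3.06 in CD fat, 6.23-fold lower. Timd4, a receptor for dying cells that marks long-lived macrophages, was at −1.03 in HFD+PP and 0.62 in CD fat, 3.15-fold lower. Marco, a scavenger receptor also of lymph node macrophages, differed by −0.56. C3ar1, the receptor of complement C3a on myeloid cells, was 2.10-fold higher. It was the only called gene of 19 complement genes, against the same shares of all genes. With normexp Cd209g (0.98), Vsig4 (0.68) and C3ar1 (0.65) were within 2-fold.

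Of 39 measured chemokines and receptors, 4 were higher and 7 lower, against 3.31% and 2.82% of all genes, with a median of −0.31. The higher ones were the monocyte attractants Ccl2 (2.05-fold) and Ccl7 (2.19-fold) together with Ccl9 (2.06-fold) and Ccl24 (2.01-fold), and with normexp all 4 were below 2-fold, between 0.848 and 0.991 log2. The lower ones included Ccr7 (2.51-fold), the lymph node homing receptor, Ccl5 (2.30-fold) of T cells and Cxcl13 (2.24-fold), which organises B cell follicles. Of 35 cytokine genes none was higher and 3 were lower, against the same shares of all genes. The lower ones were Il1a (at least 5.18-fold) and the lymphotoxins Lta (2.26-fold) and Ltb (2.04-fold). Ltb is counted again in the lymph node list below. Tnf differed by −0.89, Il1b by −0.73, Il6 by −0.61 and Il10 by −0.62. Of 32 interferon response genes 3 were lower (2.82% over all genes) and none higher (3.31%), with a median of −0.50. The 3 were Oas3 (4.13-fold), Usp18 (2.37-fold) and Oasl1 (2.21-fold). With normexp Il1a was at −0.31, Lta at −0.999 and Oas3 at −0.72 log2, all within 2-fold.

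Most T and NK cell genes were lower. Of 33 such genes, 21 were lower, against 2.82% of all genes, and none was higher, with a median of −1.08. Of 23 B and plasma cell genes only 2 passed 2-fold, both lower, while the median was −0.83. Cd3e, a subunit of the T cell receptor complex, was at 2.48 in HFD+PP and 3.56 in CD fat, 2.12-fold lower. Cd3g and Cd8b1 were 2.79-fold and 2.76-fold lower, and Tcf7, a transcription factor of naive T cells, 2.75-fold. The B cell complement receptor Cr2 was 2.15-fold lower, and −0.999 log2 with normexp. Glycam1, a ligand made by high endothelial vessels of lymph nodes, differed by −0.64. The 19 lymph node vessel and stroma genes had a median of −0.25 with 2 lower (2.82% over all genes). The same T and NK list had a median of −2.94 on HFD and −1.24 on HFD+Ex against the shared CD array. How much lymph node each pool contained was not tested.

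A part of the matrix genes was higher. Of 19 collagens, 6 were higher and none lower, against 3.31% and 2.82% of all genes, with a median of 0.86 log2, and 18 of the 19 were above 0. They were Col6a2 (2.44-fold), Col8a1 (2.37-fold), Col6a3 (2.31-fold), Col5a1 (2.23-fold), Col6a1 (2.17-fold) and Col18a1 (2.15-fold). Collagen VI, to which 3 of these belong, forms the mesh around fat cells. The fibrillar collagens Col1a1 and Col3a1 differed by 0.73 and 0.74. Of 40 matrix remodelling genes 8 were higher and 1 lower (3.31% and 2.82% over all genes), with a median of 0.60. Thbs1, a thrombospondin that activates TGF-beta, stood at 2.86 in HFD+PP and 1.04 in CD fat, 3.53-fold higher. Adamts5, a protease of aggrecan and versican, was 3.19-fold higher and Thbs2 2.97-fold. Timp4, the metalloproteinase inhibitor of fat tissue, was 2.70-fold higher, and Lox, which cross-links collagen, 2.55-fold. Tnc, a matrix protein of wounds, was 2.03-fold lower, and Timp1 differed by 0.45. With normexp Col8a1 (0.64) and Tnc (−0.60) were within 2-fold, and Tnc was at −0.52 as the median over its probes. The 15 smooth muscle genes had no called member and a median of −0.06.

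Genes of other organs moved with the comparison and stand beside all results above, since mesenteric fat is dissected from between them. Of 28 exocrine pancreas genes 5 were higher and none lower, against 3.31% and 2.82% of all genes, with a median difference of 0.72. The median level of the list was 6.41 in HFD+PP and 5.59 in CD fat, against −6.61 in HFD+PP and −6.11 in CD brown fat. Reg2, a secreted protein of acinar cells, was 4.24-fold higher, and the amylase Amy2a5 was at 8.83 in HFD+PP and 8.68 in CD fat. Islet genes were mixed, with 4 of 11 lower (2.82% over all genes), 1 higher (3.31% over all genes) and a median of −0.09. The hormones Ppy, Iapp, Ins2 and Ins1 were 5.30-fold, 2.60-fold, 2.52-fold and 2.52-fold lower, and Gcg was 2.41-fold higher. With normexp Iapp (−0.94) and Gcg (0.56) were within 2-fold and Ppy was at −1.10. On HFD the exocrine list had a median of −5.91 against the shared CD array, and all 28 genes were lower (8.46% over all genes).

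Intestinal genes were higher in HFD+PP fat. Of 24 genes of intestinal epithelium 22 were higher and none lower, against 3.31% and 2.82% of all genes. The list had a median difference of 1.86 and a median level of −0.32 in HFD+PP and −2.02 in CD fat. Fabp2, the fatty acid binding protein of enterocytes, was at 4.08 in HFD+PP and 0.64 in CD fat, 10.8-fold higher. Of 15 Paneth cell genes, 11 were higher and none lower, against the same shares of all genes, with a median of 4.39. Against the same CD array, 23 of 24 intestinal genes were higher and 1 lower on HFD (median 2.61). On HFD+Ex none of 22 was higher and 9 were lower (median −0.74). Over all genes 8.86% were higher and 8.46% lower on HFD, and 2.50% higher and 4.10% lower on HFD+Ex. Of 14 Paneth cell genes, 10 were higher and 1 lower on HFD (median 3.38), and 1 was higher and 2 lower on HFD+Ex (median 0.11). Among the 15 genes with the highest differences, 10 were alpha-defensins, the antimicrobial peptides of Paneth cells, and their differences lay between 4.39 and 6.82 log2. Their levels ran from −0.14 to 5.46 in HFD+PP and from −4.87 to −1.21 in CD fat. Defa27 stood highest by difference, at 2.83 in HFD+PP and −3.99 in CD fat, 113-fold. The alpha-defensins are near-identical copies whose probes may read each other, so their number is uncertain. In the ileum of the same groups these 10 genes differed by −0.29 to 0.05.

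The remaining genes among the highest 15 were Itln1, Spink4, Reg3g, Saa2 and Lgals2. Spink4, a product of goblet cells, was 21.2-fold higher, and Reg3g, an antibacterial lectin of gut epithelium, was 14.1-fold higher. Saa2, a serum amyloid A protein of liver and gut, was at 0.07 in HFD+PP and −3.58 in CD fat, 12.5-fold higher, with −4.00 on HFD+Ex and −3.07 on HFD. Of 21 acute phase genes 8 were higher and none lower, against 3.31% and 2.82% of all genes, with a median of 0.54. Saa1 was 3.17-fold higher and Saa3, the form made in fat cells and macrophages, 2.15-fold. With normexp Saa3 differed by 0.95 and Spink4 by 2.82 log2. A list of hepatocyte genes made after these values were seen had 14 of 25 higher (3.31% over all genes) and a median of 1.08. This list overlaps the acute phase list, with Fgg among the shared genes, so its count is not independent of the one above. Its median level was −2.17 in HFD+PP and −3.45 in CD fat, against 9.37 in HFD+PP and 9.55 in CD liver. The part of gut, pancreas, lymph node or liver RNA in any result was not tested.

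**Figure D4:**
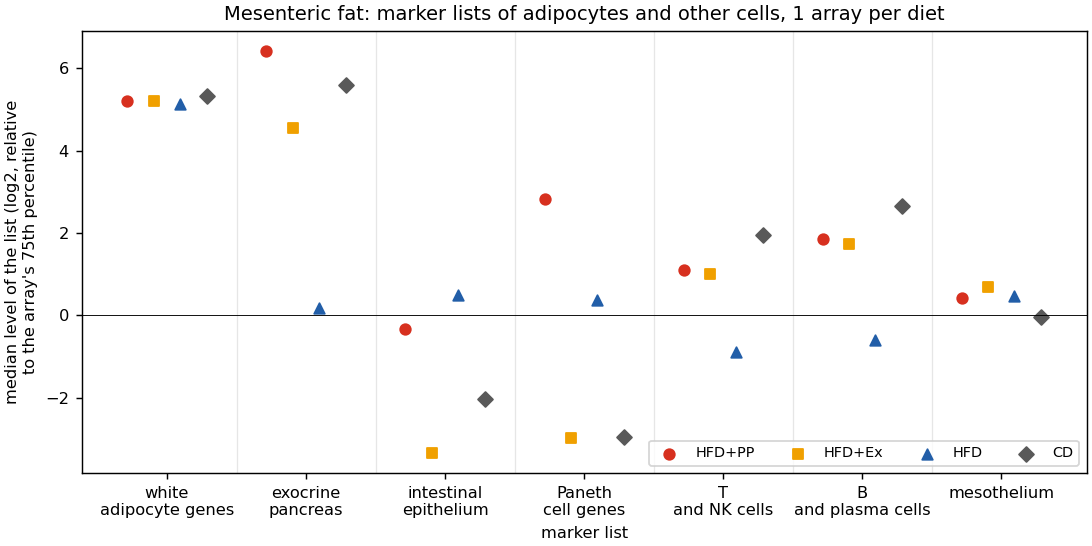
Median levels of 7 marker lists in mesenteric fat, in log2 relative to the array's 75th percentile, on HFD+PP, HFD+Ex, HFD and CD, 1 array each. White adipocyte genes lie close together on the 4 arrays, the HFD array is low for pancreas and lymphocyte genes, and the HFD+PP array is the highest for Paneth cell genes. Levels are to be read within a list.

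The 15 lowest differences ran from −5.04 to −2.41 log2 and mixed lipogenic genes with genes of unclear role in fat. All 15 were also at least 2-fold lower on HFD and on HFD+Ex against the shared CD array. The lowest was Bpifb3, a secreted protein of the BPI fold family, at −5.04 in HFD+PP and 0.00 in CD fat, 32.9-fold lower. Adcy10, the soluble adenylyl cyclase that responds to bicarbonate, was at −3.71 in HFD+PP and −0.34 in CD fat, 10.4-fold lower. Il22ra2, the soluble decoy receptor of interleukin 22, was at 0.24 in HFD+PP and 2.76 in CD fat, 5.73-fold lower. The largest bounds among lower genes were those of Oosp3, Slc15a5, Defb20, Usp26 and Olfr525, with folds of at least 23.4 for Olfr525 and at least 30.3 for Oosp3 at the ends of the range. With normexp these 5 genes were between −1.59 and −1.41 log2, Bpifb3 was at −2.74 and Adcy10 at −2.21. A set of 12 genes, with Bpifb3, Oosp3 and Olfr525 among them, stood at least 2 log2 higher on the CD array than on each of the other 19 arrays of the series, against 5 such genes for the HFD+PP array.

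Single genes of other groups also differed. Soat1, which esterifies cholesterol, was 3.61-fold lower, and Slc7a11, the cystine transporter, 3.59-fold lower. Sod3, the extracellular superoxide dismutase, was 2.28-fold higher. Dpt and Mfap5, matrix proteins of fat fibroblasts, were 2.60-fold and 2.14-fold higher, and Dlk1, the preadipocyte factor, was 2.07-fold lower, or −1.77 log2 as the median over its probes. Of 30 ceramide and sphingolipid genes, Degs2 was 3.38-fold higher and Sptssb at least 4.46-fold lower. Each is 3.33% of that list, near the 3.31% higher and 2.82% lower over all genes. The synthesis genes Sptlc2 and Cers6 differed by −0.06 and −0.12, and the sphingomyelinase Smpd3 by 0.67. The bile acid receptors differed unevenly, with Nr1h4 (FXR) 2.02-fold higher and Gpbar1 (TGR5) at 0.14. The part of gut or other organ RNA in the Degs2 and Nr1h4 differences was not tested, so they cannot be assigned to fat cells. With normexp Slc7a11 (−0.70), Dlk1 (−0.50), Sptssb (−0.45) and Nr1h4 (0.59) were within 2-fold and Degs2 was at 1.16. Nr1h4 and Ccl24 also stood just inside 2-fold with the series matrix values, at 0.999 and 0.996 log2.

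Brown fat of the same mice gave a further pair of arrays on HFD+PP and CD that lay on 1 slide and shared no array with mesenteric fat. There 591 of 14735 measured genes were higher (4.01%) and 449 lower (3.05%). Shares of the overlap are given over the called genes that were measured in both tissues. Of 14308 genes measured in both tissues, 56 were lower in both. They are 26.3% of the 213 such lower genes of mesenteric fat and 16.8% of the 334 of brown fat. Another 51 were higher in both, 16.0% of the 319 such higher genes of mesenteric fat and 10.3% of the 496 of brown fat. In the opposite sense, 17 were higher in mesenteric and lower in brown fat, 5.33% of the 319 and 5.09% of the 334. Another 33 were lower in mesenteric and higher in brown fat, 15.5% of the 213 and 6.65% of the 496. Of all genes measured in both tissues, 2.23% were higher and 1.49% lower in mesenteric fat, and 3.47% were higher and 2.33% lower in brown fat.

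Lipogenesis was lower in both tissues. In brown fat 17 of 22 genes were lower, against 3.05% of all genes, with a median of −1.40, against a median of −0.07 for all genes. Elovl6 was 3.44-fold lower in brown fat and Fasn 3.81-fold, and all 9 genes that fell in mesenteric fat also fell there. Slc2a5 and Adcy10 were among the genes lower in both tissues. Mmp12, Gpnmb, Trem2, Dcstamp, Lep, Sncg, Nnat, Ccl2, Ccl7, Saa3 and Thbs2 were higher in both. Lep stood at 1.06 in HFD+PP and −0.18 in CD brown fat. The 31 measured cell cycle genes had a median of −0.56 and no called gene in mesenteric fat (3.31% higher and 2.82% lower over all genes). Their median in brown fat was 0.64, a difference that was not tested. Of 18 collagens measured in brown fat none was called, against 4.01% higher and 3.05% lower over all genes there. Their median was 0.61, and this was not tested against mesenteric fat. Both brown fat arrays lay on 1 slide, which also held the mesenteric HFD+PP array. The brown fat differences of these genes were thus measured within a slide. The mesenteric ones were measured across slides, where slide and diet cannot be told apart.

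**Figure D5:**
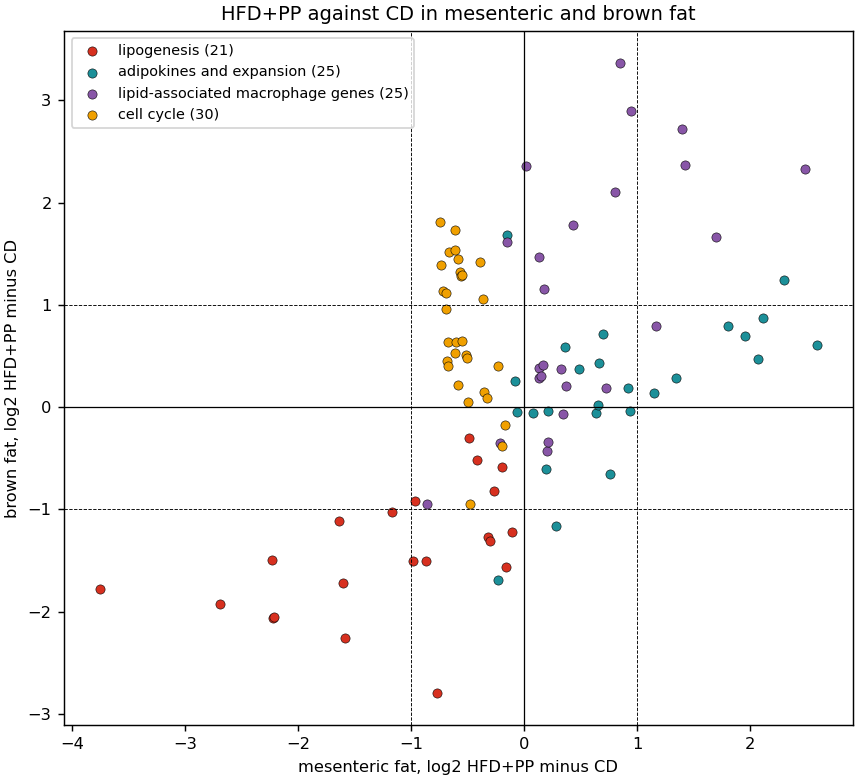
Log2 difference HFD+PP minus CD in mesenteric fat (horizontal) and in brown fat (vertical) for members of 4 gene lists measured in both tissues, with dashed lines at 2-fold. Lipogenesis genes lie in the lower left, lipid-associated macrophage genes mostly in the upper right, and cell cycle genes mostly in the upper left.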

How the data were processed

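RNA of mesenteric fat, pooled per the labels from 7 mice of a diet, was hybridised to 1 Cy3-labelled array per group. The deposited scanner files hold 1 background-subtracted intensity per spot, read per the file headers with Agilent Feature Extraction 11.5.1.1. The deposited series matrix holds the same intensity times 1 factor per array, on a linear scale, with column medians of 102.3 (HFD+PP) and 103.6 (CD). The labels do not state what that factor was set to.

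The log2 intensity minus the 75th percentile of non-control spots on each array was used. Spots with an outlier flag were left out and spots of a probe averaged. Accessions were matched to RefSeq symbols of GRCm38.p6 for 28026 of 55681 probes, and the brightest probe over 20 arrays stood for each of 21154 genes. Of the 1013 called genes 129 had more than 1 probe bright on both arrays, and in 6 of those another probe had the opposite sign. On these 2 arrays 66.3% (HFD+PP) and 60.5% (CD) of spots were well above background and none was saturated. The number of arrays limits the precision.

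A bound was taken against the dim probe's own signal or, where that was higher, the dimmest signal that the array still called well above background. Genes named in the text come from the 15 highest and 15 lowest differences measured on both arrays, the 5 largest bounds each way, up to 6 called members of each of 46 gene lists per direction, and 81 preset genes. Slc25a1, Cav1, G6pdx and Pgd were named after their values were seen. Some genes are not reported here. The members, lists and genes were chosen with earlier results of these data known. Counting and bounds were run on simulated data with planted differences well above 2-fold and the noise of replicate spots. That check does not cover calls near 2-fold or variation between pools or slides. Python 3.11.15, pandas 2.3.3 and limma 3.58.1 (normexp) were used. Alternatives covered background correction, scaling, filters, thresholds and probe choice.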

Additional observations from a re-analysis of the deposited data

Results flagged for a closer look

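Cd5l, a product of tissue macrophages, was called in opposite directions in the fat depots, at −2.64 log2 for HFD+PP minus CD in mesenteric fat and at least 2.57 log2 in brown fat. Defa-ps1, a defensin pseudogene, differed by at least 6.29 log2 in mesenteric fat and by −1.29 log2 in brown fat. The 31 measured cell cycle genes had a median of −0.56 in mesenteric fat and 0.64 in brown fat. In brown fat 13 of 30 were higher (background 4.01%), against none in mesenteric fat (background 3.31%). With 1 array per diet in each tissue, none of these differences between tissues was tested.

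Probes without a gene symbol entered no comparison above. Of 14924 such probes well above background on at least 1 array, 325 were at least 2-fold higher (2.18%) and 716 at least 2-fold lower (4.80%) in HFD+PP than in CD fat.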

How the results depend on the processing

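The counts of 547 higher and 466 lower genes moved by over 1.5 times under 5 alternatives. With normexp background correction, added after the data were seen and run on the median spot signal, 267 genes were higher and 152 lower. Keeping dim probes unfiltered gave 1139 higher and 709 lower genes, and without genes of other tissues 322 were higher. A 3-fold threshold gave 198 higher and 164 lower genes, and a 1.5-fold threshold 1657 and 1342. Scaling on probes bright on all arrays (523 and 501), quantile normalization (581 and 539), the series matrix (529 and 488), a filter on both arrays (439 and 335) and the median over probes (561 and 466) stayed within 1.5 times. No called gene among those named and no list median of 1 log2 or more changed sign under any of these. Of 153 such genes, 114 kept 2-fold under normexp and 151 under the series matrix. The lipogenesis median ran from −0.96 to −0.84 and the T and NK cell median from −1.16 to −0.99. The median of all genes moved by less than 0.1 log2. Normexp on the mean spot signal was not run, since the files hold the median instead. No paired analysis was possible because each group was 1 array, and for the same reason no array could be left out.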
